A study of Mus musculus with 20 samples.

Results

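Genome-wide binding of the coactivator p300 in mouse embryonic stem (ES) cells was measured by chromatin immunoprecipitation and sequencing (ChIP-seq) in 2 libraries and set against 1 library of whole cell extract (WCE), the input chromatin that was not immunoprecipitated. These 3 libraries are part of a series of 20 on chromatin marks in ES cells, other cultured cells and liver. Over 500 bp bins of the 19 autosomes, 28458 p300 sites were called in both p300 libraries, out of 42860 called in library 1 and 37742 called in library 2.

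p300 is a histone acetyltransferase that does not read DNA itself and is brought to chromatin by transcription factors. It is known as a mark of enhancers, the distal elements that raise transcription of genes from afar, and it acetylates lysine 27 of histone H3 (H3K27ac), a mark of active enhancers and promoters. Monomethylation of lysine 4 (H3K4me1) is common at enhancers whether active or not, and trimethylation (H3K4me3) is typical of promoters. In ES cells p300 is often found where pluripotency factors bind.

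The p300 and WCE libraries came from V6.5 (C57BL/6-129) ES cells, without added treatment in the labels, that were kept on irradiated fibroblasts and then grown for 2 passages without them. The labels give the same antibody (Santa Cruz s.c. 585) for both p300 libraries, and 1 field of library 2 names its target p301, where the others say p300. The marks set beside p300 were from ES cells too. H3K27ac (2 libraries), H3K4me3 (1) and the histone H3 control (1) came from V6.5 cells after 1 passage without fibroblasts. H3K4me1 library 1 came from V6.5 cells after 2 passages, library 2 from cells of this background with a dox-inducible 4f2a transgene after 1 passage, and library 3 from an inbred C57/B6 line after 1 passage. The labels do not say that libraries of a group came from separate cultures, so the spread between them may be technical. No gene or sequence could be attached to the sites, because the largest read positions fit mm8, while the annotation at hand is of GRCm38.p6.

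Depth was similar in the 3 libraries. p300 library 1 held 6958805 distinct reads on the autosomes, library 2 held 8242030 and WCE 6953421, where a distinct read is a position on a strand counted a single time. Repeated positions made up 8.80%, 10.5% and 8.91% of reads. The other ES libraries held 6197971 to 9946681 distinct reads, except H3K4me3 with 2319684, of whose reads 70.0% were repeats. Levels are RPM per kb, that is, distinct reads scaled to the same library total, on which scale the mean over all bins is 0.466 in each library.

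p300 was concentrated in a small part of the genome. A bin was called where a p300 library exceeded the WCE expectation by a one-sided Poisson test (Benjamini-Hochberg adjusted p of at most 0.01 over 4293699 bins) and was at least 3-fold over it. Library 1 called 67248 bins (1.57%), library 2 called 57952 (1.35%), and 41751 (0.972%) were called in both. This test compares single libraries. The same calling of H3 over WCE gave 82 bins (0.00191%), of WCE over p300 library 1 gave 54 (0.00126%) and of WCE over p300 library 2 gave 33 (0.000769%). The bins called in both libraries, which these reads chose, held 15.7% of the reads of p300 library 1, 14.3% of those of library 2, 1.73% of WCE reads and 0.953% of H3 reads.

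Across replicates, a limma-trend fit of log2 RPM (2 p300 libraries against the lone WCE library, which is assumed to vary like them) was run on the 191126 bins with at least 15 reads. It called p300 higher by at least 3-fold at an adjusted p of 0.01 in 42887 bins (22.4% of those bins), and these held 80.2% of the bins called in both libraries by the Poisson test. The 15 reads are counted over the p300 and WCE libraries together, 2 of them p300, so the filter favours bins where p300 is high. Over the 191126 bins the median log2 difference was 0.943, so the 22.4% is not a share of the genome. There was 1 residual degree of freedom, and the estimate of the spread came wholly from the trend over bins. The SE given for a site below is therefore a trend value and does not measure the spread of the p300 libraries at that site. After a TMM-like scaling between libraries it called 49316 bins (25.8%).

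Most sites were narrow and of moderate strength. After joining called bins up to 1000 bp apart, 70.5% of sites were a single bin, the 95th percentile of width was 2000 bp and the widest site spanned 11500 bp. Site strength, the mean of the p300 libraries in the strongest bin (the summit bin), had a median of 5.29 RPM per kb, with a 10th percentile of 3.32, a 90th of 14.0, a 99th of 38.6 and a highest value of 164. All sites were put in 5 strength classes of equal number, 1 the weakest and 5 the strongest, which are read apart at promoter and other sites below. The median summit was 8.56-fold over the WCE expectation in library 1 and 7.41-fold in library 2. In bulk cells, stronger binding per cell and binding in more cells cannot be told apart. WCE exceeded 3 times the genome mean at 311 sites (1.09%), and these were kept in all counts.

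Whether a site was called in the other p300 library depended on its strength. Of library 1 sites, 65.5% (Wilson 95% interval 65.0 to 65.9%) were also called in library 2, and of library 2 sites 74.7% (74.3 to 75.1%) in library 1. These intervals, and those below, cover counting error alone. Ranked by their level in library 1, its sites in decile 1, the weakest, were called in library 2 for 24.5% of sites, those in decile 5 for 59.2%, in decile 8 for 94.1% and in decile 10 for 99.98%. Ranked by library 2, the shares called in library 1 ran from 31.8% in the weakest decile to 100% in the strongest.

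Sites called in 1 library alone also carried reads in the other. They were kept because the other library did not call them, which holds its level down. At the 14793 sites of library 1 alone, the mean level was 1.64 RPM per kb in library 2, beside 0.583 in H3 and 0.798 in WCE, and 68.9% of them were at least 2-fold over the WCE expectation in library 2. At the 9547 sites of library 2 alone, library 1 stood at 1.80, H3 at 0.557 and WCE at 0.738, and 77.2% were at least 2-fold over. In the weakest decile of all library 1 sites, called in library 2 or not, library 2 was 3.00 times as high as H3, and in the strongest decile 44.2 times. The sites seen in a single library were therefore mostly above background in the other library as well, though by definition not called there.

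Within the sites called in both, levels in the 2 libraries followed each other. Pearson's r of log2 levels was 0.872 and Spearman's rho 0.770 over 28458 sites, as a description: the points share their libraries, and being called in both removed pairs with 1 low value. Over all tested bins r was 0.553 between the p300 libraries and 0.340 and 0.334 between each of them and WCE. The libraries were at least 2-fold apart at 1123 sites (3.95%). Library 1 was higher at promoter sites, by a mean ratio of 1.26 (7.34 against 5.85 RPM per kb), and near equal at the other sites, by 1.06 (8.16 against 7.67). In the strongest class of sites, the squared difference between libraries was 1.89 times (promoter) and 1.92 times (other) what read counting alone gives, so those sites varied between libraries by more than counting error.

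**Figure D1:**
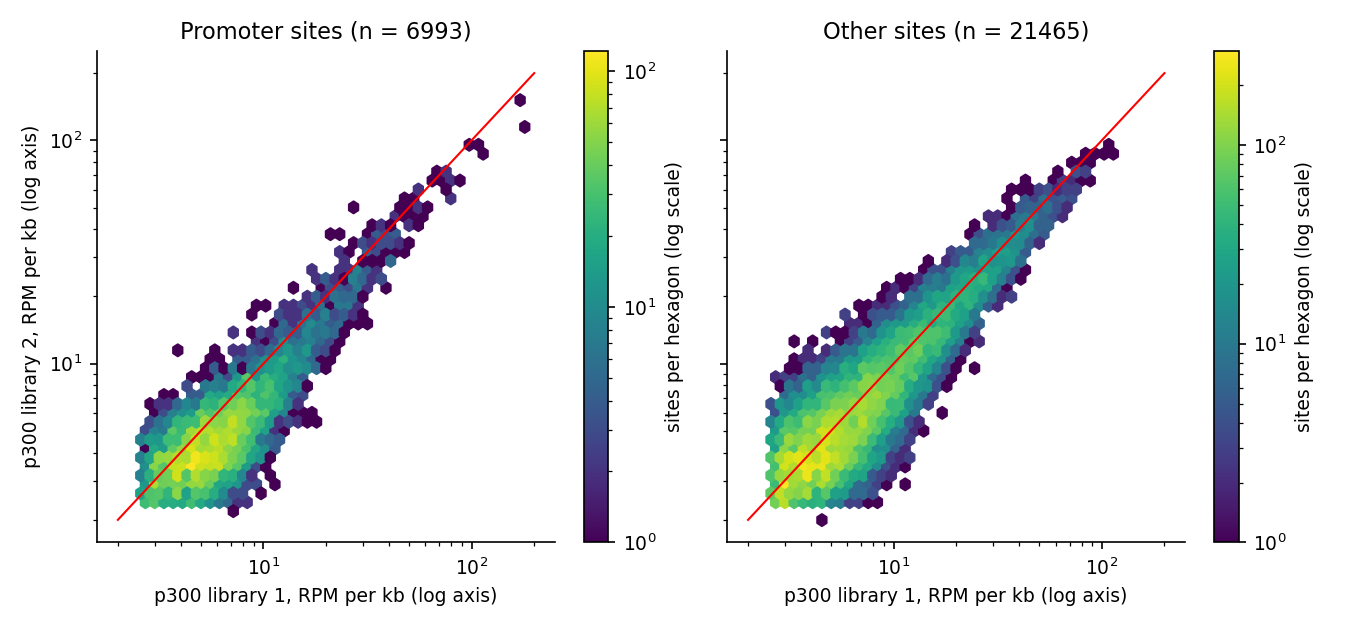
p300 level of each site in library 1 (x axis) and library 2 (y axis), in RPM per kb of the summit bin on log axes, for the 6993 promoter sites and the 21465 other sites, coloured by the number of sites per hexagon, with the red line at equal levels. Other sites lie along the line, and promoter sites lie below it on average, with a mean ratio of library 1 to library 2 of 1.26.

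The sites least alike in the libraries were looked for, by rule, only among those called in 1 library with at least 20 reads there. At chr2:38519501-38520000, library 1 had 20 reads and library 2 had 1, with 2 WCE reads. At chr5:139101501-139102000 the counts were 21 and 3, with 3 in WCE. At chr4:3866001-3866500, a promoter site, they were 36 and 6, with 2 in WCE, and a site on chromosome 18 had 20 and 3, with 3 in WCE. All 4 were higher in library 1. Being chosen for their difference, they are given without a test.

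The strongest other sites stood at least 106-fold over the WCE expectation in both libraries, and the strongest promoter sites at least 90.2-fold. These are the 8 other sites and, after them, the 4 promoter sites with the highest fold in their lower library, so their p300 values describe the choice. At chr5:65143501-65146000 the summit bin held 362 reads in each p300 library and 2 in WCE, which is 190-fold and 161-fold over the expectation (limma log2 difference 6.43 ± 0.18, SE). At chr4:140836501-140839000 it held 257 and 312 reads, with 1 in WCE. At chr6:135004501-135008000 the counts were 301, 267 and 7, and there, with more WCE in the summit bin than its 5000 bp surroundings gave, limma's log2 difference was the lowest of the 8 at 4.88 ± 0.17 (SE). The counts in both p300 libraries lay far above WCE at all of them, and the order of the p300 libraries changed from site to site.

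The marks at these strongest other sites differed widely. H3K27ac over the 2500 bp around the summit was 17.1 and 13.5 RPM per kb in its 2 libraries at chr5:65143501-65146000, and 15.1 and 13.4 at chr2:154117501-154120000. It was 8.81 and 7.38 at chr7:11914001-11915000, and 6.34 and 6.05 at chr6:55721001-55724000. It was 4.56 and 4.00 at chr3:32954001-32956000. At chr1:54429001-54430000, with 172 and 230 p300 reads and none in WCE (3 reads is the limit that a count of 0 allows), H3K27ac was 1.23 and 1.48 and mean H3K4me1 0.965, the lowest of the 8 for both marks. Mean H3K4me1 over its 3 libraries was highest, at 4.54, at chr5:65143501-65146000. Over the 8 sites, p300 in library 1 lay between 49.4 and 109 RPM per kb, while H3K27ac in its library 1 ran from 1.23 to 17.1.

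The strongest promoter sites, so named by H3K4me3 of ES cells alone, had H3K27ac close to or above the highest of these. chr2:51893001-51895000 held 295 and 278 p300 reads and 3 of WCE, with H3K27ac of 18.3 and 22.6 and H3K4me3 of 26.0. chr3:34947501-34950000 held 233 and 299 reads and 1 of WCE, with H3K27ac of 15.4 and 11.3 and H3K4me3 of 7.07. chr4:118568001-118573500 held 326, 381 and 4, with H3K27ac of 22.5 and 22.6 and H3K4me3 of 4.48, just over the promoter threshold. chr6:122305001-122308500 held 194, 262 and 6, with H3K27ac of 13.5 and 15.3 and H3K4me3 of 9.83. The sites with the highest p300 levels, singled out after their values were seen, were not among them. At chr11:4168001-4169500, with H3K4me3 of 45.4, p300 reached 178 and 150 RPM per kb, where WCE was also high at 7.77, for a lower fold of 71.5. At chr17:39451501-39454500 p300 was at 173 and 118, WCE at 54.1 and H3 at 13.9, for a lower fold of 3.78. High input coverage there went with high values in each library shown.

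**Figure D2:**
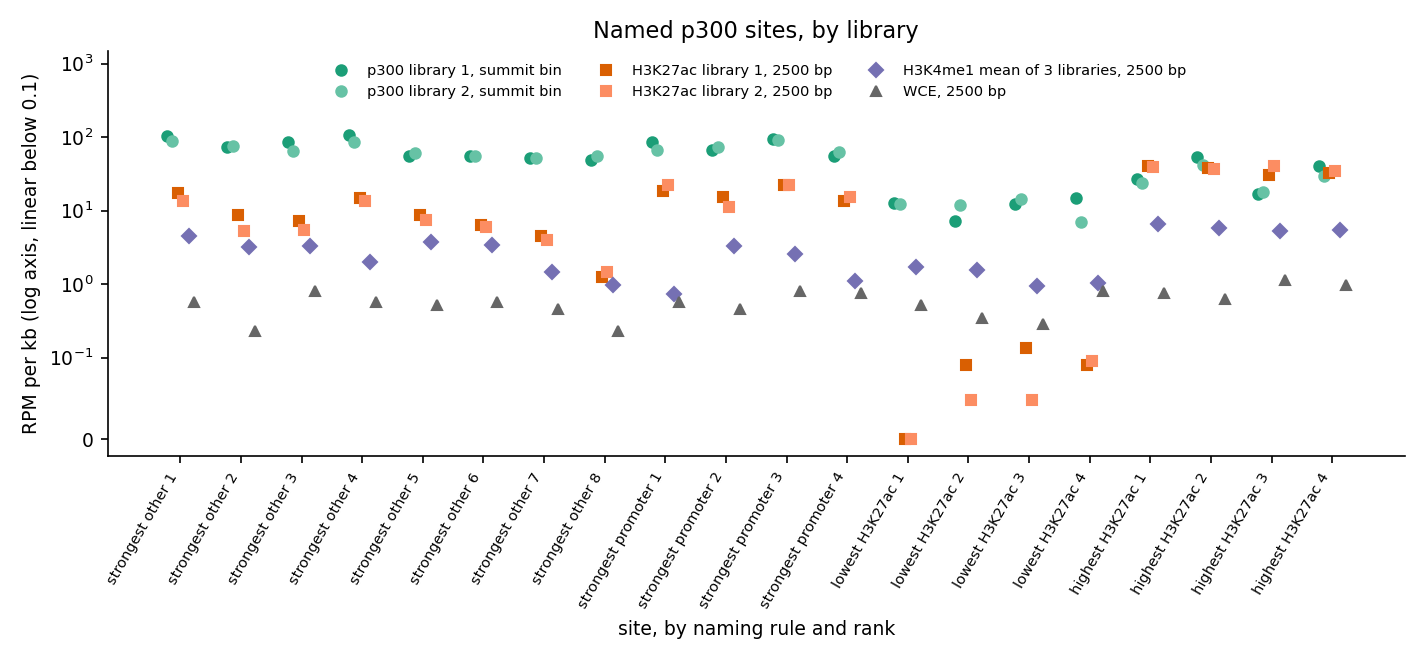
Levels in RPM per kb (log axis, linear below 0.1) at the 20 sites named by rule, in the summit bin for p300 and over 2500 bp for H3K27ac, mean H3K4me1 and WCE, with 1 point per library or mean. That p300 stands above WCE at each site follows from the choice of sites called over WCE. H3K27ac, by which some of the sites were chosen, runs from 0 at the lowest site to 40.6 at the highest.

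Promoter sites made up 24.6% (24.1 to 25.1%) of all sites. A site is called promoter here where the H3K4me3 library reached 4 RPM per kb over the 2500 bp around the summit bin, which gave 6993 promoter and 21465 other sites. Near that threshold, 1632 sites lay between 2 and 4 (the highest of them at 3.97) and 1594 between 4 and 8 (the lowest at 4.14), so 5.73% and 5.60% of sites sit close to it on each side. Of sites called in library 1 alone 14.2% were promoter sites, and of those called in library 2 alone 8.26%.

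The median p300 level was similar in the 2 kinds of site, while very strong sites were more frequent among the others. Median strength was 5.09 RPM per kb at promoter sites and 5.38 at the others, mean strength was 6.59 and 7.92, and WCE over 2500 bp was 0.746 and 0.709. The strongest class held 11.98% of promoter sites and 22.6% of other sites. Of 10954 stretches of the genome with H3K4me3 at or over the threshold, 64.9% (64.0 to 65.8%) held a bin called in both p300 libraries, where 0.972% of single bins are called and a stretch has a median width of 3000 bp. Ordered in quintiles by peak H3K4me3, that share went up from 44.2% to 59.5%, 65.4%, 73.4% and 82.1%, while mean p300 over the stretches did not follow it. Mean p300 was 2.63, 2.33, 2.27, 2.28 and 2.69 in library 1 and 2.14, 1.91, 1.86, 1.85 and 2.19 in library 2, lower in the middle quintiles. The stretches also got wider, from a median of 2000 bp to 3500 bp, which gives more bins to call, and its part in the rise was not tested.

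The marks separated the 2 kinds of site. H3K4me1 was 1.65, 2.08 and 1.56 RPM per kb at promoter sites in libraries 1, 2 and 3, and 2.72, 2.94 and 3.11 at other sites, so each library was higher at other sites and the 2 sets of values did not overlap. H3K27ac was 8.36 and 11.5 at promoter sites and 3.31 and 3.09 at the others. H3K4me3, which set the split, was 15.1 and 0.749. H3, the measure of nucleosome content, was 0.476 and 0.555. Both kinds of site were read in the same libraries, so the values are given without a test.

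Called marks followed the levels. H3K4me1 bins called in at least 2 of 3 libraries make up 5.03% of all tested bins and H3K27ac bins called in both libraries 2.73% (3.64% in library 1 and 3.47% in library 2). A site counts as called where any 500 bp bin of the 2500 bp around its summit was called. The shares of sites are therefore not on the same footing as these shares of single bins. Such H3K4me1 bins lay at 76.0% (75.03 to 77.03%) of promoter sites and 90.1% (89.7 to 90.5%) of other sites. H3K27ac was called in both libraries at 99.2% of promoter sites and at 62.5% (61.9 to 63.2%) of other sites. Neither H3K27ac library was called at 4 promoter sites and at 4942 other sites (23.0%).

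Other sites therefore fell into groups by their marks. At 13004 (60.6%), both H3K4me1 and H3K27ac were called, with a median p300 strength of 6.38 RPM per kb and 31.2% of them in the strongest class. At 3592 (16.7%), H3K4me1 was called and H3K27ac in neither library, the combination usually described as primed or inactive enhancers. There the median strength was 4.48 and 9.16% were in the strongest class. At 419 (1.95%), H3K27ac was called and H3K4me1 not, with a median strength of 4.35 and 12.2% in the strongest class. H3K27ac was called in 1 of its libraries at 3100 (14.4%). At 1350 (6.29%) neither mark was called, the median strength was 3.83 and the nearest p300 site lay a median of 50.5 kb away, against 7 kb for sites with both marks. p300 was thus higher in the group with both marks than with H3K4me1 alone or with neither, in library 1 (9.87, 5.49 and 4.41 RPM per kb in the group with both, with H3K4me1 alone and with neither) and in library 2 (9.09, 5.52 and 4.48). WCE moved the same way, at 0.779, 0.609 and 0.486, and its part in this order was not tested.

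Strong p300 sites with little H3K27ac were looked up by rule. Among other sites of the strongest class, chr4:48293001-48293500 had 44 and 50 p300 reads and 2 of WCE, with H3K27ac at 0 in both libraries (which allows up to 0.137 and 0.143) and H3K4me1 at 2.37, 1.32 and 1.48. chr1:6049001-6049500 had 43, 59 and 3, with H3K27ac of 0.137 and 0.0476. chr7:6014001-6014500 had 52, 29 and 6, with H3K27ac of 0.0913 and 0.0952, and a site on chromosome 18 had 25, 49 and 3. Their p300 counts describe the choice, since sites of this class were called over WCE in both libraries. At the opposite end, chr10:75092001-75094500 had 93, 97 and 3 reads, with H3K27ac of 40.6 and 39.5 and H3K4me1 of 5.63, 8.39 and 5.74. chr4:140554001-140564500, a site 10500 bp wide, had 189, 174 and 4 in its summit bin, with H3K27ac of 37.8 and 36.6. The pair chr17:56393501-56396000 and chr10:80338501-80344500 had H3K27ac of 30.3 to 40.3. The sites with the least H3K27ac were each 1 bin wide, while those with the most were 2500 to 10500 bp wide. They also differed in p300 strength, at 9.54 to 13.3 RPM per kb for the least and 17.3 to 48.3 for the most. The part of strength in the widths was not tested.

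Averaged around their centres, p300 sites showed a narrow p300 peak inside broad marks. Midway between its top and the level beyond 2500 bp, the p300 peak at other sites was 200 bp wide in each library, the H3K27ac peak 1200 and 1000 bp and the H3K4me1 peak 1900 to 2000 bp. At promoter sites the p300 peak was 400 bp wide. WCE had a small peak of its own at the centres, 1.25 times its level 300 to 1000 bp away at other sites and 1.19 times at promoter sites, where p300 stood at 7.70 and 7.65 times (other) and 4.80 and 4.53 times (promoter).

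Nucleosome content was lowest at the centres. H3 within 150 bp of the centre was 0.854 times its flank level at other sites and 0.446 times at promoter sites. Among other sites the ratio was 0.957 in the weakest class of p300 strength and 0.725 in the strongest. H3K4me1 changed shape along the same range. In the weakest class it was highest at the centre, 1.35, 1.53 and 1.46 times the flank in its 3 libraries. In the strongest class it was highest 550 bp from the centre, and the centre was 0.716, 0.828 and 0.706 times the flank. H3K27ac went from 2.06 and 2.28 times the flank to 0.992 and 1.10 times. All 5 libraries of these marks thus had a central peak at weak sites that was smaller, gone or turned into a dip at strong ones. WCE kept its central peak, at 1.31 and 1.23 times its flank.

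At promoter sites the H3K4me1 libraries disagreed at the centre. The ratio of centre to flank was 0.905 in library 1, 1.76 in library 2 and 0.392 in library 3. Library 2 had a central peak 200 bp wide that reached 3.85 RPM per kb, library 1 a smaller one, and library 3 a plain dip to 0.663 on average. Beyond 2500 bp the 3 curves lay together, with far levels of 1.51 to 1.56. The libraries differ in cell line and in passages, and the labels give the same antibody for them; their part in this was not tested. H3K4me1 values over the promoter summit bins therefore depend on the library, while those of the 2500 bp windows depend on it less.

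**Figure D3:**
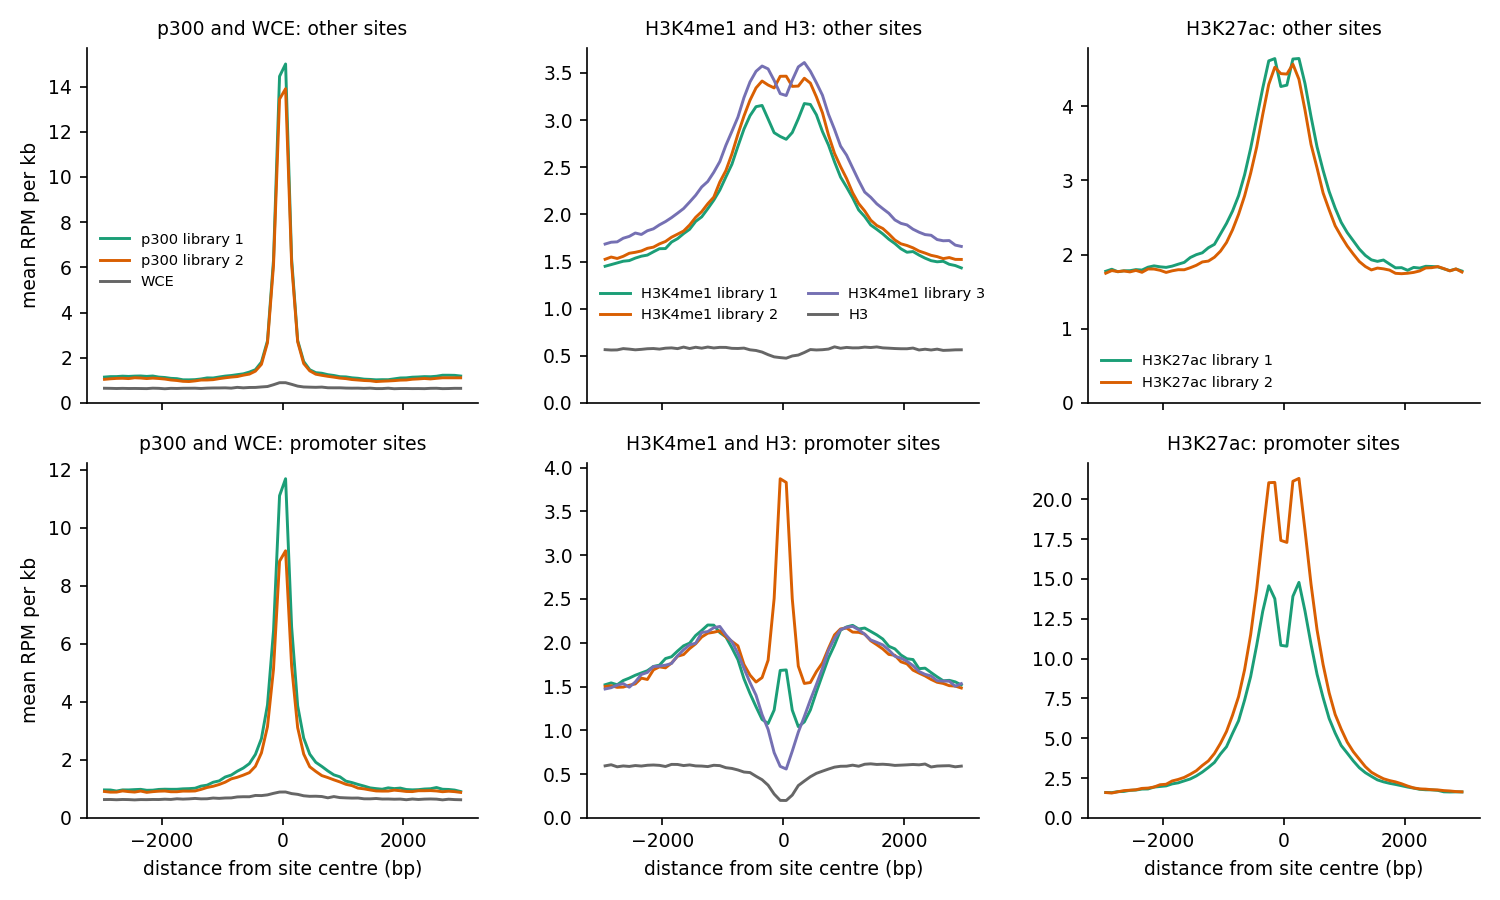
Mean level (RPM per kb, y axis) in 100 bp steps against the distance from the site centre (bp, x axis) for p300 and WCE, H3K4me1 and H3, and H3K27ac, at other sites (top) and promoter sites (bottom), 1 line per library. p300 forms a narrow peak, H3 dips, and at promoter sites H3K4me1 library 2 peaks at the centre (3.85) where library 3 dips.

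p300 sites were unevenly spaced. Neighbouring summits lay a median of 23 kb apart, the mean was 84.2 kb, 16.1% of gaps were at most 5 kb, 35.7% at most 12.5 kb and 331 were over 1 Mb. The mean was 3.66 times the median, with many short gaps beside long stretches without a called site. Distances also span bins without reads in any ES library, where no site could be called. The nearest other site was a median of 11 kb away, 10 kb for other sites and 13.5 kb for promoter sites. By p300 level, stronger sites had closer neighbours: the median went from 13.5 kb in the weakest class of other sites to 7.5 kb in the strongest, and from 20.5 to 7.5 kb for promoter sites. With classes by the lower fold over the WCE expectation this order was lost at other sites, where the medians were 8.5, 11.5, 11.5, 11 and 8.5 kb in classes 1 to 5. At promoter sites they were then 13.25, 15, 16, 13.5 and 8.5 kb. Other sites lay a median of 34.5 kb from the nearest H3K4me3-high bin, with 39, 33.5, 34, 36 and 30 kb in classes 1 to 5 by level and so no steady order.

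The density of sites differed between chromosomes. Sites per Mb of tested sequence were 13.3 over all autosomes, lowest on chromosome 3 at 9.03 and highest on chromosome 11 at 20.6. Mean WCE was 0.409 RPM per kb on chromosome 3 and 0.544 on chromosome 11, so background coverage moved the same way by a smaller ratio, and its part was not tested. Median strength per chromosome stayed between 5.04 and 5.61 RPM per kb.

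Most sites belonged to runs, that is, to stretches of sites whose neighbouring summits were at most 12.5 kb apart. There were 5342 runs of 2 or more sites, holding 15508 sites (54.5%), and 50 runs of 10 or more, the largest with 16. With promoter and other sites pooled, the share in the strongest class by level was 14.7% for lone sites and 19.9% in runs of 2. It was 25.6% in runs of 3 to 4, 29.5% in runs of 5 to 9 and 32.0% in runs of 10 or more. Among other sites alone the shares were 17.6%, 22.3%, 27.6%, 31.3% and 30.9% in the same order, with no rise at the last step. Whether this order holds with classes by fold was not tested. Marks at the other sites went up along the same order. H3K27ac went from 2.05 and 1.89 RPM per kb at lone sites to 7.11 and 6.84 in runs of 10 or more. H3K4me1 went from 2.23, 2.32 and 2.495 to 3.70, 4.31 and 4.32. WCE went from 0.649 to 0.820 and H3 from 0.532 to 0.573, both by smaller ratios than the marks.

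The 5 largest runs that passed the limit on WCE differed in makeup. The run at chr17:45007501-45094500 held 15 sites, 8 of them promoter sites, over 85.5 kb from first to last summit, with site strengths of 3.52 to 69.0 and mean H3K27ac of 12.50 and 13.99. The run at chr12:87660001-87731000 held 13 sites over 69.5 kb, 1 of them a promoter site. Runs at chr15:25685001-25734500, chr4:123119501-123193000 and chr5:120935001-120994000 held 12 sites each, with 3, 2 and 1 promoter sites. Each of the latter had 5 sites in the strongest class, and their H3K27ac ranged from 6.26 to 11.6 over libraries. Each of the 5 runs held 3 to 5 sites of the strongest class and at least 1 site of the weakest, with lowest strengths of 3.18 to 3.67.

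**Figure D4:**
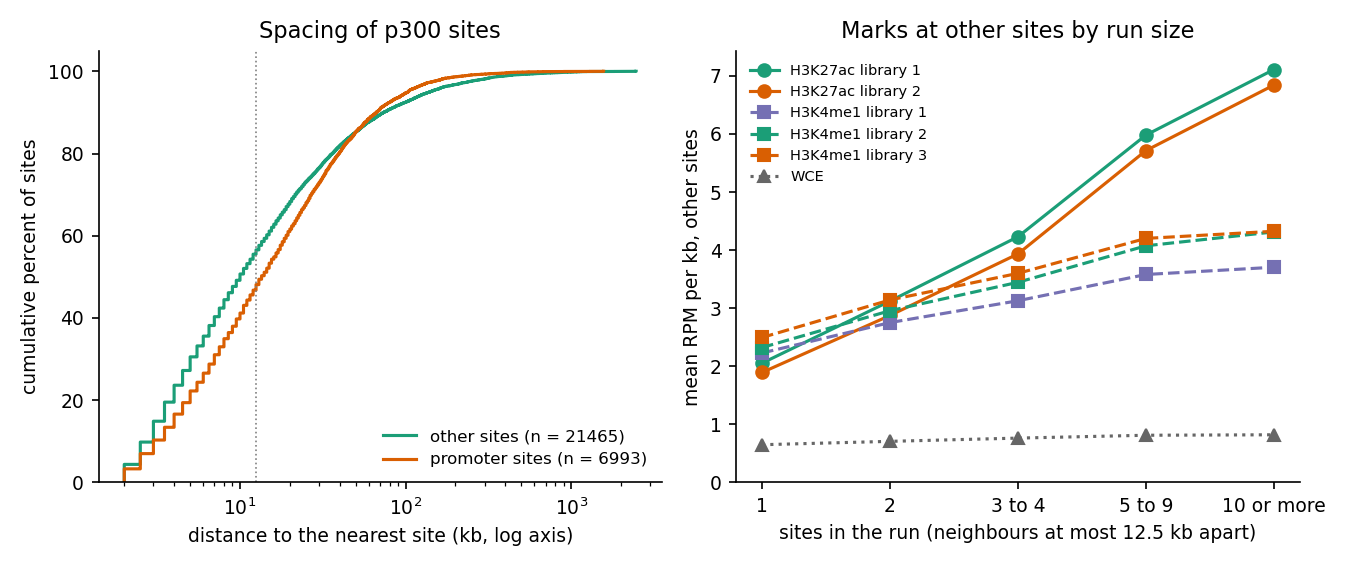
Left, cumulative percent of sites by the distance to the nearest site (kb, log axis) for 21465 other and 6993 promoter sites, with the dotted line at 12.5 kb. Right, mean level at other sites (RPM per kb) by the number of sites in the run, 1 line per library: H3K27ac goes from 2.05 and 1.89 at lone sites to 7.11 and 6.84 in runs of 10 or more, and WCE from 0.649 to 0.820.

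H3K27ac and H3K4me1 both went up with p300 level at other sites. The mean strength of other sites went from 3.27 RPM per kb in class 1 to 17.8 in class 5. H3K27ac library 1 was at 1.54, 2.25, 2.74, 3.43 and 6.19 RPM per kb in classes 1 to 5, and library 2 at 1.51, 2.19, 2.63, 3.22 and 5.55. H3K4me1 went from 1.91 to 3.55 in library 1, from 2.02 to 3.94 in library 2 and from 2.34 to 3.76 in library 3, higher at each of the 4 steps. Class 5 over class 1 was 4.02 and 3.68 for H3K27ac (mean 3.85) and 1.80 ± 0.18 (SD, n = 3) for H3K4me1.

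WCE went up too, by 1.36 times (0.583 to 0.795), and H3 did not (1.01 times). Bins below the H3K4me3 threshold with no called p300 nearby stood at 0.277 for mean H3K4me1 and 0.201 for mean H3K27ac. Even the weakest class of other sites, at 2.09 and 1.52, was well over them. H3K27ac was called in both libraries at 40.5% of class 1 and 84.6% of class 5, and in neither at 39.7% and 7.75%. The 237 other sites among the strongest 1% of all sites had H3K27ac of 12.4 and 10.7.

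The size of the dose effect depended on how strength was defined. When sites were classed by their lower fold over the WCE expectation, which WCE enters inversely, class 5 over class 1 was 1.88 for H3K27ac (2.01 and 1.76 in its libraries) and 1.15 for H3K4me1 (1.24, 1.22 and 1.01), with WCE at 0.836. In those classes H3K27ac was lowest in class 2 and H3K4me1 did not go up at the first step. Over the summit bin alone, with classes by level, the ratios were 2.62 for H3K27ac and 1.16 for H3K4me1, with 0.992 in H3K4me1 library 3. With fold classes and the summit bin together, H3K4me1 was lower in class 5 than in class 1 in all 3 libraries (0.905, 0.923 and 0.722 times), beside 0.846 for WCE, and H3K27ac was 1.51 and 1.31 times as high. At other sites H3K27ac in class 5 was thus above class 1 under each of these definitions, and by more than WCE was, while the direction for H3K4me1 depended on the definition.

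At promoter sites the same classes gave a mean ratio of 2.62 for H3K27ac (2.87 and 2.37) and of 1.57 for H3K4me1 (1.53, 1.70 and 1.47). WCE there went up by 1.59 times, as much as H3K4me1, and H3K4me3 by 1.09 times. Bins over the H3K4me3 threshold with no called p300 nearby stood at 1.58 for mean H3K4me1 and 3.51 for mean H3K27ac. Class 1 of promoter sites stood at 1.47 and 6.23, so by level its H3K4me1 was not above those bins, while its H3K27ac was. Background was lower in class 1, with H3 at 0.457 against 0.758 and WCE at 0.605 against 0.990. Relative to H3, mean H3K4me1 was 3.21 in class 1 and 2.08 in those bins, so its order depended on the scale. Classed by fold, promoter H3K27ac was 1.81 and 1.60 times as high in class 5, H3K4me1 1.07, 1.14 and 0.943 times, and WCE 0.812 times. In the promoter summit bin, H3K27ac by level was 1.75 and 1.44 times as high in class 5, less than WCE at 1.78 times, and by fold 1.21 and 1.04 times.

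**Figure D5:**
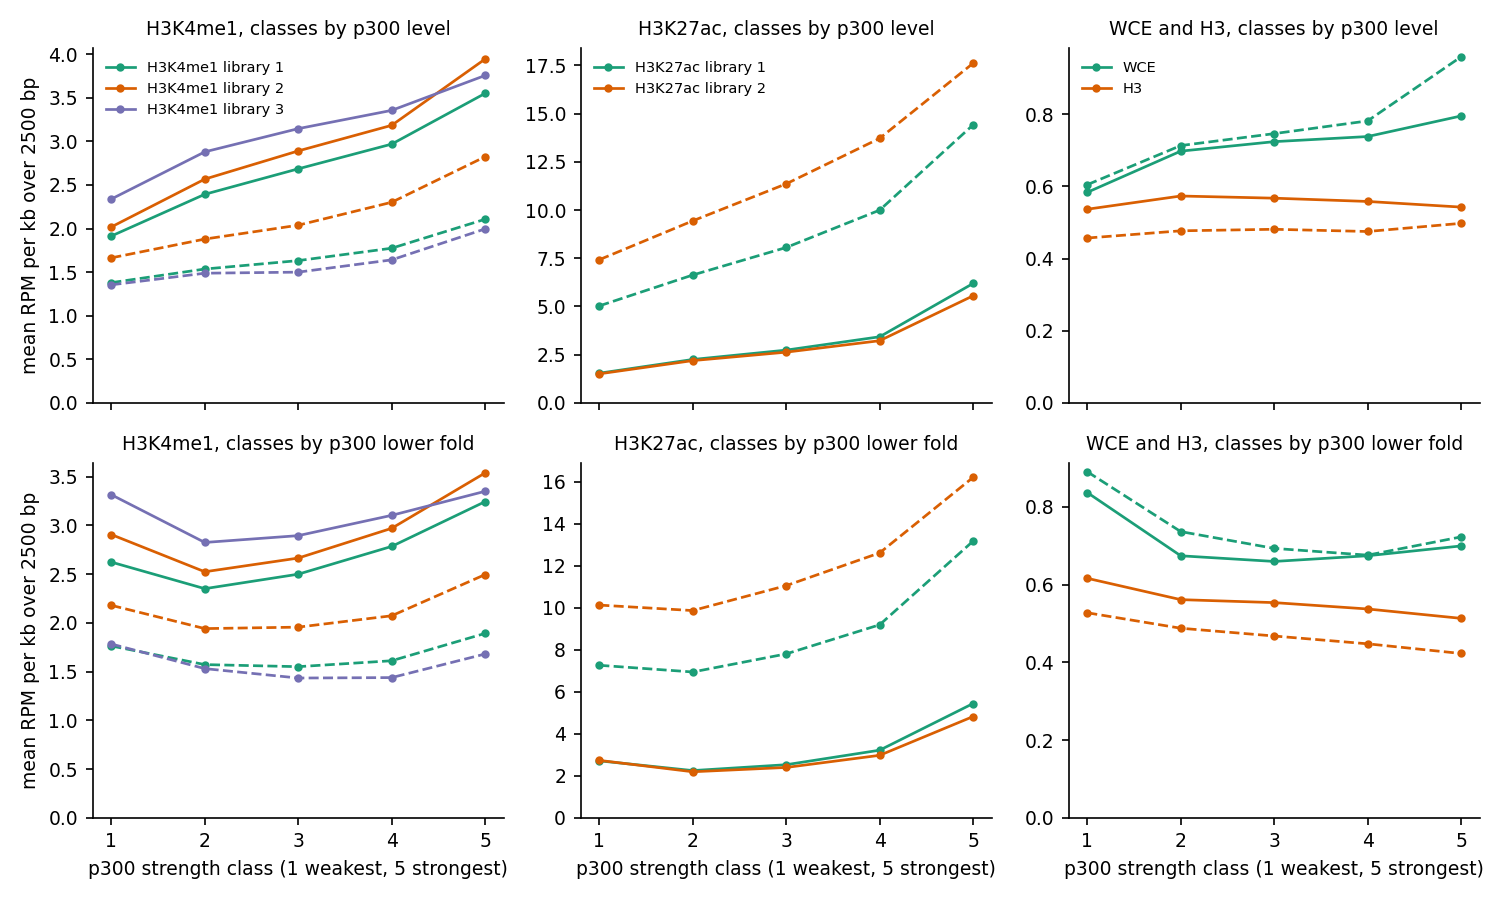
Mean level over 2500 bp (RPM per kb, y axis from 0) by p300 strength class (x axis, 1 weakest to 5 strongest) for H3K4me1, H3K27ac, and WCE with H3, with classes by p300 level (top) and by the lower fold over the WCE expectation (bottom). Solid lines are other sites and dashed lines promoter sites, 1 line per library; H3K27ac at other sites reaches 6.19 and 5.55 in class 5 by level, and WCE goes up by level and down by fold.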

How the data were processed

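Chromatin was sonicated to about 500 bp, amplified with 18 PCR cycles and taken from a gel at 200 to 350 bp, per the labels' protocols. The authors deposited, for each library, 1 signed read position per line under a chromosome name, in sections U0 and U1, with repeats kept. These other values are neither counts per feature nor a signal, and of the aligner and the build nothing is given in the sources used here. Positions are written 1-based.

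Each position and strand was counted a single time, moved 100 bp toward the fragment centre and binned in 500 bp on chromosomes 1 to 19. As expectation served the WCE count, scaled to depth and averaged over 5000 bp, or the genome mean where that was larger. Strength classes were taken over all sites. Marks were called against H3 with the same settings, and levels are RPM per kb over 2500 bp around the summit bin unless said. Python 3.11.15, numpy 2.4.6, scipy 1.17.1, pandas 2.3.3, matplotlib 3.10.9, R 4.3.3 and limma 3.58.1 were used. The caller and the limma step were tested on simulated data.

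Sites were named by rule, with WCE of at most 3 genome means. Named were the 8 other and 4 promoter sites of highest lower fold (at least 20 reads in each library), the 4 other sites of the top class lowest and the 4 highest in H3K27ac, the 4 sites most unlike between libraries (called in 1, at least 20 reads) and the 5 runs with most sites. The members, thresholds and lists were chosen with earlier results of these data known. Reads on X and Y were not used. Depth limits weak sites most, since a called bin held at least 9 reads in library 1 and 10 in library 2. Alternatives covered the background, fold, bin, joining, duplicates, depth, H3K4me3 threshold, class definition and each library left out.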

Additional observations from a re-analysis of the deposited data

How the results depend on the processing

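No paired analysis was possible because WCE is 1 library, so the groups compared share fewer than 2 replicate numbers. Changing 1 choice at a time, the class ratios stayed above 1 as means over libraries. With fold classes and the summit bin together, H3K4me1 at other sites turned to 0.722 to 0.923, by level in the summit bin library 3 alone gave 0.992, and by fold the nearest site was 8.5 kb away in both class 1 and class 5. Without p300 library 1 or 2, 37742 to 42860 sites, 57952 to 67248 bins, a promoter share of 20.42 to 20.97% and a spacing of 15.5 to 18 kb were found. Without each p300 or mark library, class 5 over class 1 was 1.730 to 2.5003 for H3K4me1 and 3.68 to 5.16 for H3K27ac. In the values below, L1 and L2 are the shares of library 1 and library 2 sites called in the other library, K4 and K27 the class ratios of H3K4me1 and H3K27ac at other sites.

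With H3 as background, L1 was 64.8%, the spacing 20.5 kb and K27 3.33. With a minimum fold of 5, L1 was 63.9%, L2 77.5%, the promoter share 24.1%, the spacing 31.5 kb, K4 2.00 and K27 4.77. With only adjacent bins joined, L1 was 63.7%, L2 73.2%, the spacing 18 kb and K27 3.43. With bins up to 3000 bp apart joined, L1 was 67.5%, L2 76.0%, the promoter share 25.4%, the spacing 29.5 kb and K27 4.22. With bins of 1000 bp, L1 was 66.8%, L2 77.7%, the promoter share 25.6%, the spacing 27 kb, K4 2.05 and K27 4.68. With at least 1 WCE read per bin, L1 was 64.4%. Thinned to 6953421 reads, L1 was 61.3% and L2 77.5%. With all reads kept, L1 was 62.7%, L2 69.3%, the promoter share 23.1% and K27 4.12. With U0 reads alone, L1 was 66.2% and L2 72.4%. The promoter share was 30.3% at an H3K4me3 threshold of 2, 18.97% at 8 and 27.1% over the site itself. Classes by the lower fold gave K4 1.15 and K27 1.88, the summit bin alone 1.16 and 2.62, and 5500 bp gave K4 2.01. Among sites with no other site within 12.5 kb, a choice made after seeing the data, K27 was 3.56. A TMM-like scaling, with p300 factors of -0.21 and -0.24 relative to WCE on the log2 scale, raised p300 over WCE, and limma then called 49316 bins. The cause of these shifts was not tested.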

Other observations

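Marks of other cells were read at the ES p300 sites, from 1 library each and without a test. H3K4me1 of iPS cells, which are fibroblasts reprogrammed to an ES-like state, was 3.26 RPM per kb at other sites, beside 2.72 to 3.11 in the ES libraries. In embryonic fibroblasts it was 1.66 and in whole liver 1.37, with medians of 0.672 and 0.492. H3K27ac at the same sites was 1.01 in neural progenitors (129JAE-C57/B6 derived, from embryoid bodies) and 1.32 in liver, beside 3.31 and 3.09 in ES cells. At promoter sites H3K27ac was 19.3 in neural progenitors and 8.68 in liver, beside 8.36 and 11.5 in ES cells. The medians there were 17.1 and 7.37, but 0.617 and 0.753 at the 48 promoter sites among the strongest 1% of all sites. In neural progenitors, the named promoter sites chr3:34947501-34950000 and chr4:118568001-118573500 had 0.352 and 0.411. chr2:51893001-51895000 and chr6:122305001-122308500 had 15.2 and 9.81.

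From class 1 to class 5 of p300 strength at other sites, iPS H3K4me1 went from 2.33 to 4.10 (1.76 times). In fibroblasts it went from 1.36 to 1.85 (1.36 times, as WCE of ES cells) and in liver from 1.19 to 1.42 (1.20 times). H3K27ac went from 0.835 to 1.11 in neural progenitors (1.33 times) and from 1.12 to 1.33 in liver (1.19 times). These libraries held 2294246 to 14280972 distinct reads.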
